A study of Mus musculus with 12 samples.

Results

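The genes described here are 32 markers of macrophages and of antigen presentation by MHC class II molecules, measured in dorsal root ganglia, which house the cell bodies of sensory neurons next to the spinal cord. They were taken from a list of symbols matched to the Ensembl identifiers of the deposited tables, with no threshold on their values, and 32 of the 55416 genes in each table are members. All 32 were found and all 32 passed the filter on low counts, which left 16384 genes to test. Poly(A) RNA from adult C57Bl6 mice was sequenced in 12 libraries to find genes that depend on Prdm12, a zinc finger protein of pain-sensing neurons. The 6 iKO libraries carry the genotype Rosa26Cre ERT2; Fl/Fl, a tamoxifen-activated Cre recombinase with both Prdm12 alleles floxed, and were taken 1 month after tamoxifen. Rosa26 is active in most cell types, so Cre is not restricted to neurons in this model. Among the 6 controls, control 1 was Rosa26Cre ERT2; Fl/+, controls 2 and 3 were +/+; Fl/+ without Cre, and control 4 was Rosa26Cre ERT2; +/+, all with tamoxifen. Controls 5 and 6 had the iKO genotype and received corn oil. Female animals gave controls 1 and 2 and iKO 1 to 3, and males gave the remaining 7 libraries. Nothing in the labels says whether a library is 1 animal, so p-values measure only the spread between these samples.

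Totals ran from 13943784 to 20377766 counts per library, and 0 pairs of libraries held identical counts. Prdm12 ranged from 64.6 to 147 CPM (counts scaled to library size, with TMM factors) in controls and from 18.6 to 25.4 CPM in iKO libraries, a log2 fold change of -2.33 (adjusted p = 8.59e-05, edgeR quasi-likelihood F test, Benjamini-Hochberg). The library iKO 1 stood apart from all others. Its summed sensory neuron markers were the lowest of the 12 libraries, at 0.761 of the mean of the other 5 iKO libraries. Its summed markers were 2.61 times that mean for fibroblasts, 2.21 times for endothelium, 3.05 times for red blood cells and 1.28 times for satellite glia. Each comparison is therefore given with and without it.

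Tissue macrophages depend on signals through the Csf1 receptor, engulf debris, and carry lysosomal enzymes, complement proteins and Fc receptors. In sensory ganglia they lie close to the neuron cell bodies and their satellite glia. MHC class II molecules, made under the control of the regulator Ciita, carry peptides from engulfed proteins to the cell surface for recognition by CD4+ T cells. In bulk tissue, fewer cells of a type and less RNA per cell cannot be told apart.

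The summed level of the 32 genes was lowest at 710 CPM in control 5, had a median of 870.2 CPM and was highest at 1180.5 CPM in control 6 among the controls. Among iKO libraries the lowest sum was 679.8 CPM, the median 700.8 CPM and the highest 2067 CPM, in iKO 1. The other 5 iKO libraries lay within 679.8 to 746 CPM, inside or below the lower end of the control range, while iKO 1 was far above every control. iKO 1 was the highest of all 12 libraries in 30 of the 32 genes, and the exceptions were Ciita, where it ranked 3, and Cd163, where it ranked 2. Its level was 1.75 times (Ciita) to 3.60 times (Cd74) the mean of the other iKO libraries.

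**Figure D1:**
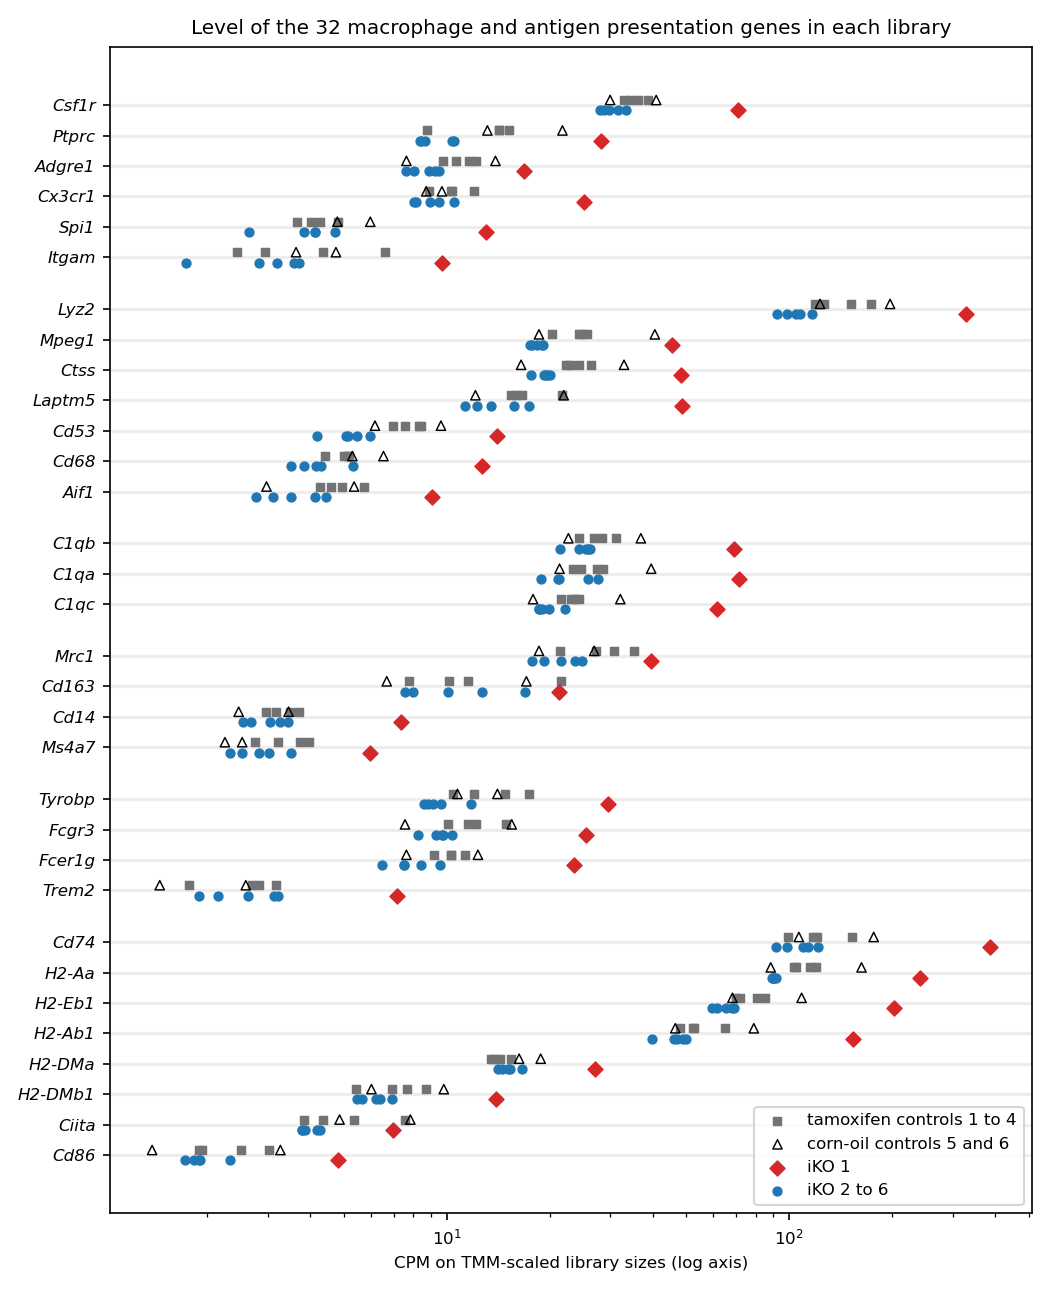
CPM of each of the 32 genes (log axis) in each library, grouped by role, with tamoxifen controls as squares, corn-oil controls as triangles, iKO 1 as a diamond and iKO 2 to 6 as circles. iKO 1 is the highest point in 30 of 32 genes, and the other 5 iKO libraries sit in or below the lower part of the control range for most of them.

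With all 12 libraries, 0 of the 32 genes were called by the quasi-likelihood F test of edgeR after Benjamini-Hochberg adjustment, where 0.946% of the 16384 genes tested were called. Of the 32, 0 also had an unadjusted p under 0.05, against 9.52% of all genes, and DESeq2 and limma-voom called 0. Fitted log2 fold changes, iKO minus control, were negative for 20 genes and positive for 12. Their median was -0.05, beside 0.00 for all genes, and they ran from -0.36 (Ciita) to 0.30 (Trem2). The smallest adjusted p was 0.620, for Ciita, by the quasi-likelihood F test of edgeR after Benjamini-Hochberg adjustment. The median standard error of the 32 genes was 0.27, against 0.097 for all genes tested, so differences of the size seen were not detectable in this set of libraries. In 0 of the 32 genes did every iKO library lie below every control, where 0.665% of all genes did so.

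Without iKO 1, 31 of the 32 fitted changes were negative and their median was -0.31, beside -0.003 for all genes. By edgeR's quasi-likelihood F test, 1 of the 32 genes fell, Cd53, a tetraspanin of leukocytes, and 0 rose, where 2.21% of 16454 genes were called in either direction and 1.01% were called lower. Of the 32 genes, 17 had an unadjusted p under 0.05 (53.1%, against 16.2% of all genes). iKO 1 was the highest library in most of the 32 genes, and no control was left out. The genes also vary together, so this share is a description and not a test. Limma-voom called 1 gene (2.13% of all genes), DESeq2 called 4 lower (3.67%), and edgeR with no filter on low counts called 16 lower (3.78% of 35438 genes). The median standard error was 0.14. In Lyz2 and Cd53 each of the 5 iKO libraries lay below all 6 controls, as in 1.27% of all genes. The exception to the negative sign was Trem2, at 0.07.

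The controls were also restricted, after seeing the data, to the 4 tamoxifen-injected ones, again without iKO 1. In these 9 libraries 11 of the 32 genes fell and 0 rose (34.4%), while 9.62% of 16487 genes were called in either direction and 3.28% were called lower. With the corn-oil libraries kept in the fit as a group of their own, the same contrast called 2 of the 32, both lower, where 8.87% of all genes were called, so 9 fewer genes passed. The 11 genes were Csf1r, Adgre1, Ptprc, Lyz2, Mpeg1, Ctss, Cd53, Tyrobp, Fcer1g, H2-Aa and H2-Eb1. The median over all 32 genes was -0.26, beside -0.006 for all genes, and 30 of 32 were negative. In 7 genes (Adgre1, Lyz2, Ctss, H2-Aa, H2-Eb1, Cd53 and Mpeg1) all 5 iKO libraries lay below all 4 controls, as in 3.94% of all genes. In the same 9 libraries, 3 of 7 fibroblast markers, 3 of 7 endothelial markers, 2 of 6 B cell markers and 1 of 6 mural cell markers were also called lower, and 2 of 10 sensory neuron and 2 of 6 myelinating Schwann cell markers were called higher. Of the monocyte, neutrophil, dendritic cell, mast cell, red blood cell, T and NK cell and satellite glia markers tested, 0 were called there. The part of all these cell types was not tested.

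**Figure D2:**
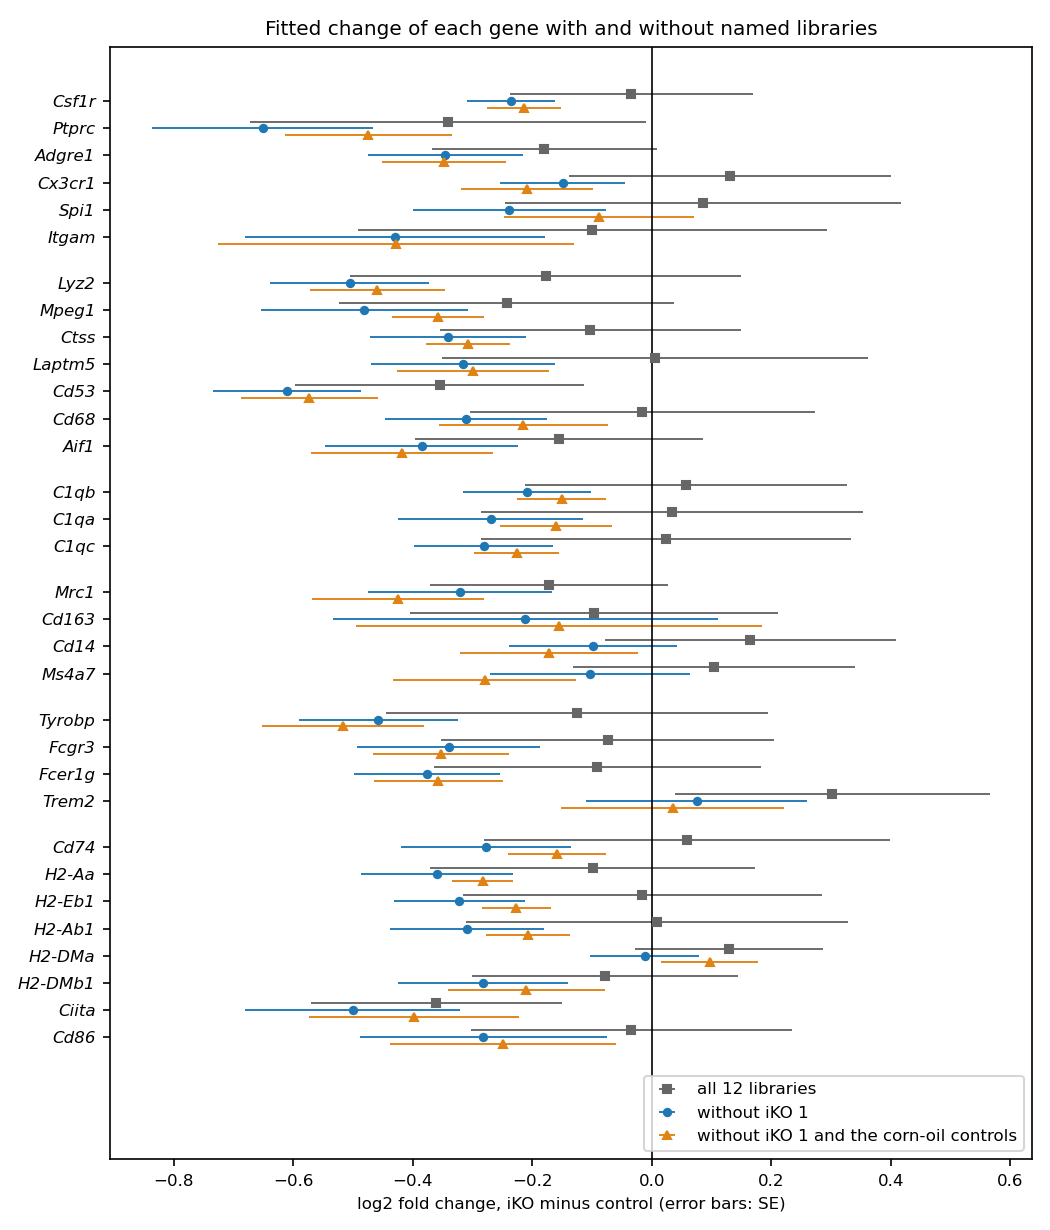
Fitted log2 fold change of each gene, iKO minus control, with its standard error, for all 12 libraries (squares), without iKO 1 (circles) and without iKO 1 and the corn-oil controls (triangles). Without iKO 1, 31 of 32 estimates lie on the negative side, and most error bars are shorter.

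Lineage receptors and the transcription factor Spi1 formed a group of 6, with 0 called in all 12 libraries, 0 without iKO 1 and 3 lower in the 9 libraries. In those 9 libraries 3.28% of all genes were called lower. Csf1r, the receptor for the growth factors Csf1 and Il34, was at 30.0, 35.4 and 40.9 CPM (lowest, median and highest) in controls and at 28.1, 30.7 and 70.8 CPM in iKO libraries. The top iKO value is that of iKO 1, and the other 5, up to 33.3 CPM, overlapped the controls. Its log2 fold change was -0.03 ± 0.20 (SE) in all 12 libraries, -0.24 ± 0.07 without iKO 1 and -0.21 ± 0.06 in the 9 libraries (adjusted p = 0.0399, edgeR quasi-likelihood F test, Benjamini-Hochberg). Ptprc, the CD45 phosphatase of all leukocytes, was at 8.74, 14.2 and 21.8 CPM in controls and 8.36, 9.53 and 28.2 CPM in iKO libraries. Control 3 was low and lay among the iKO libraries, and control 6 was high. The change in Ptprc was -0.34 ± 0.33 with all libraries and -0.65 ± 0.19 without iKO 1, the most negative of the 32, and -0.47 ± 0.14 in the 9 libraries, where it was called. It was also called when control 3 was left out together with iKO 1 (adjusted p = 0.00692, edgeR quasi-likelihood F test, Benjamini-Hochberg).

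Adgre1, which encodes the F4/80 antigen, was at 7.63, 11.2 and 13.9 CPM in controls and 7.60, 9.06 and 16.8 CPM in iKO libraries. Control 5 was as low as the lowest iKO library, and the 4 tamoxifen controls, from 9.79 CPM, lay above iKO 2 to 6, which reached 9.48 CPM. Cx3cr1, the fractalkine receptor, had 8.72, 10.002 and 12.04 CPM in controls and 8.02, 9.21 and 25.2 CPM in iKO libraries, with overlap throughout apart from iKO 1. Its change was 0.13 ± 0.27 with iKO 1 and -0.15 ± 0.10 without it. Spi1 encodes PU.1, a master transcription factor of myeloid cells, and had 3.66, 4.54 and 5.98 CPM in controls and 2.64, 4.13 and 13.0 CPM in iKO libraries. Itgam, the integrin chain CD11b, spread widely within both groups (2.44 to 6.62 CPM in controls, 1.73 to 9.68 CPM in iKO libraries). Cx3cr1, Spi1 and Itgam were called in none of the 3 sets of libraries.

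Lysosomal and cytoplasmic proteins made up 7 genes, of which 0 were called with all libraries, 1 fell without iKO 1 and 4 fell in the 9 libraries. Of all genes, 1.01% were called lower without iKO 1 and 3.28% in the 9 libraries. Lyz2, the lysozyme of myeloid cells and the most abundant of the 32 per length, was at 119, 139 and 197 CPM in controls and at 91.9, 106 and 327 CPM in iKO libraries. Without iKO 1 the iKO libraries reached 117 CPM and so stayed just below the lowest control. The log2 fold change was -0.18 ± 0.33 with all libraries, -0.51 ± 0.13 without iKO 1 (adjusted p = 0.0857, edgeR quasi-likelihood F test, Benjamini-Hochberg) and -0.46 ± 0.11 in the 9 libraries, where it was called. Its near copy Lyz1 averaged 1.79 CPM in controls, and whether reads common to both were counted is not known.

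Cd53 was at 6.18, 7.93 and 9.62 CPM in controls and at 4.18, 5.31 and 14.01 CPM in iKO libraries. iKO 2 to 6 reached 5.99 CPM, below every control, and iKO 1 was above every control. Its log2 fold change was -0.35 ± 0.24 with all libraries and -0.61 ± 0.12 without iKO 1 (adjusted p = 0.0150, edgeR quasi-likelihood F test, Benjamini-Hochberg). That call was lost when iKO 3 was also left out (-0.58, adjusted p = 0.0523). The promoter of Cd53 is shown because this is the 1 gene of the 32 that passed the test without iKO 1, and the sequence bound by PU.1, the product of Spi1, could be searched there. RefSeq places it at chr3:106790130-106790399 on the minus strand of GRCm38.p6, from 250 bases before the start of transcription. Capitals mark a match to GAGGAAGT on the reverse strand (read here as ACTTCCTC), which begins 6 bases after the start.
Cd53: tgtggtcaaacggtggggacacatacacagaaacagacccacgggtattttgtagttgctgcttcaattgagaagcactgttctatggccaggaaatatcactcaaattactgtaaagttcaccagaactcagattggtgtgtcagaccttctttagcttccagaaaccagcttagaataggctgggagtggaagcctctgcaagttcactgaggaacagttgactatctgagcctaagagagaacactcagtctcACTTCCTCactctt
On either strand of windows from 250 bases before to 50 after the start, 3.2% of 32851 promoters hold these letters, and so do 3 of the 26 windows found for 22 of the 32 genes (Cd53, C1qc and Ctss). A match is a description of the letters and shows no binding.

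Mpeg1, which encodes the pore-forming protein perforin-2, was at 18.6, 24.6 and 40.5 CPM in controls and 17.5, 18.7 and 45.5 CPM in iKO libraries. iKO 2 to 6 kept within 17.5 to 19.1 CPM, and control 5 lay among them. Ctss, the cathepsin that trims the invariant chain from class II molecules, was at 16.5, 23.6 and 32.9 CPM in controls and 17.6, 19.6 and 48.3 CPM in iKO libraries, and control 5 was again the lowest control. Both fell in the 9 libraries, by 0.36 and 0.31 on the log2 scale. Laptm5, a lysosomal membrane protein of blood cells, was at 0.01 ± 0.36 with all libraries and -0.32 ± 0.15 without iKO 1. Cd68, a lysosomal glycoprotein, and Aif1, the calcium-binding protein IBA1, had changes of -0.31 ± 0.14 and -0.39 ± 0.16 without iKO 1, and neither was called in any set.

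The 3 chains of complement C1q, the recognition unit of the classical complement pathway that macrophages secrete, followed each other closely. C1qa was at 21.4, 26.1 and 39.5 CPM in controls and 18.9, 23.5 and 71.6 CPM in iKO libraries. For C1qb the values were 22.7, 27.7 and 36.9 CPM in controls and 21.4, 25.7 and 69.0 CPM in iKO libraries. For C1qc they were 17.9, 23.4 and 32.1 CPM in controls and 18.6, 19.4 and 61.4 CPM in iKO libraries. In each chain control 5 was the lowest control, control 6 the highest, and iKO 2 to 6 overlapped the controls. Log2 fold changes were 0.03, 0.06 and 0.02 with all libraries and -0.27, -0.21 and -0.28 without iKO 1, and 0 of 3 were called in any set.

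Scavenger and tissue-resident surface proteins numbered 4, and 0 were called in any of the 3 sets. Mrc1, the mannose receptor CD206, was at 18.6, 27.1 and 35.2 CPM in controls and 17.7, 22.7 and 39.6 CPM in iKO libraries, with overlap and a change of -0.32 ± 0.15 without iKO 1. Cd163, the haemoglobin scavenger receptor, varied most within groups, with a coefficient of variation of 46.2% in controls and 35.0% in iKO 2 to 6. Control 2 held its highest value, 21.5 CPM, just above iKO 1 at 21.3 CPM. Cd14, the co-receptor for bacterial lipopolysaccharide, and Ms4a7, a membrane protein of tissue macrophages, had changes of -0.10 ± 0.14 and -0.10 ± 0.17 without iKO 1.

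ITAM signalling was represented by the adaptors Tyrobp (DAP12) and Fcer1g (the Fc receptor gamma chain) and by the receptors Trem2 and Fcgr3, which pair with them. Of these 4, 0 were called with all libraries or without iKO 1. The 2 adaptors fell in the 9 libraries, where 3.28% of all genes were called lower. Tyrobp was at 10.4, 13.0 and 17.4 CPM in controls and 8.59, 9.36 and 29.6 CPM in iKO libraries. iKO 5, at 11.8 CPM, overlapped the controls, and the other 4 of iKO 2 to 6, up to 9.62 CPM, lay below them. Its change was -0.46 ± 0.13 without iKO 1 (adjusted p = 0.0956, edgeR quasi-likelihood F test, Benjamini-Hochberg) and -0.52 ± 0.14 in the 9 libraries. Fcer1g was at 7.63, 10.3 and 12.3 CPM in controls and 6.48, 7.97 and 23.6 CPM in iKO libraries, and fell by 0.36 in the 9 libraries. Trem2, a lipid receptor of macrophages, had 1.45, 2.65 and 3.17 CPM in controls and 1.89, 2.88 and 7.16 CPM in iKO libraries, with overlap apart from iKO 1. With 20 to 134 counts per library it was among the least counted genes of the set. Fcgr3, an activating Fc receptor, had a change of -0.34 ± 0.15 without iKO 1. It has near copies in Fcgr2b (10.08 CPM on average in controls) and Fcgr4 (1.61 CPM), so reads it may share with them make its counts uncertain.

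MHC class II presentation was measured by 7 genes with Cd86 as a co-stimulatory ligand for T cells. Of these 8, 0 were called with all libraries or without iKO 1. H2-Aa and H2-Eb1 fell in the 9 libraries, where 3.28% of all genes were called lower. H2-Aa and H2-Ab1 encode the chains of I-A, the class II molecule of C57BL/6 mice. H2-Aa was at 88.3, 109.8 and 163 CPM in controls and 89.0, 90.0 and 241 CPM in iKO libraries. iKO 2 to 6 kept within 89.0 to 91.4 CPM, a coefficient of variation of 1.03%, and control 5 lay just below them while the other 5 controls lay above. The log2 fold change of H2-Aa was -0.10 ± 0.27 with all libraries, -0.36 ± 0.13 without iKO 1 and -0.28 ± 0.05 in the 9 libraries (adjusted p = 0.0032, edgeR quasi-likelihood F test, Benjamini-Hochberg). H2-Ab1 was at 46.5, 52.7 and 78.8 CPM in controls and 39.7, 48.1 and 153 CPM in iKO libraries, which overlapped, and was not called in any set. H2-Eb1 encodes the beta chain of I-E and was at 68.3, 76.2 and 109 CPM in controls and 59.4, 66.8 and 202 CPM in iKO libraries. iKO 4, at 69.1 CPM, was above control 5 and below the 4 tamoxifen controls, and H2-Eb1 fell by 0.23 in the 9 libraries.

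Promoters of 3 class II genes are shown because the class II genes varied together across libraries and these 3 hold the Y box, a short element of class II promoters bound by the factor NF-Y. Capitals mark TGATTGG, read on the strand of the gene. It begins 50 bases before the start of transcription in H2-Aa, 61 before in H2-Eb1 and 63 before in H2-DMb1. The windows are chr17:34287804-34288073 on the minus strand, chr17:34305617-34305886 on the plus strand and chr17:34152941-34153210 on the plus strand of GRCm38.p6, from RefSeq.
H2-Aa: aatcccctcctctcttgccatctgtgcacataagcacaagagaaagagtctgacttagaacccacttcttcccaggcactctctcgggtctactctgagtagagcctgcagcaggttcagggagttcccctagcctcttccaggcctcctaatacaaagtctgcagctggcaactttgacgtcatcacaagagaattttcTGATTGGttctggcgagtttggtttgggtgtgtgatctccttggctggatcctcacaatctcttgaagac
H2-Eb1: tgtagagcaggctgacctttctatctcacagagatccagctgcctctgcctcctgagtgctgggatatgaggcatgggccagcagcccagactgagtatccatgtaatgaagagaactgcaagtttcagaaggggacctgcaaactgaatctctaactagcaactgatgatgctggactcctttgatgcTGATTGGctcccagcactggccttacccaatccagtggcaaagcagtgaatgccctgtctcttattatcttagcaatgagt
H2-DMb1: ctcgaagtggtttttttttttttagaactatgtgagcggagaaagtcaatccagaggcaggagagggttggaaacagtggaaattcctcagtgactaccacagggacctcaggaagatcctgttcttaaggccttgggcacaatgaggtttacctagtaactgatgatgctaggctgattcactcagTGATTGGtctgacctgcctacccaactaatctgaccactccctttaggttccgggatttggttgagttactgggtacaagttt
TGATTGG or its reverse complement CCAATCA is found in 7.82% of the 32851 promoters searched. It is in 4 of the 26 windows found for 22 of the 32 genes (these 3 and Cd68). The windows of H2-DMa were searched and held no match, and no window of H2-Ab1, Cd74 or Ciita was searched. Whether these letters go with the shared variation was not tested. No match elsewhere says only that these letters are not in that window.

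Cd74, the invariant chain that guides class II molecules through the cell, was at 99.1, 119 and 177 CPM in controls and 91.6, 112 and 386 CPM in iKO libraries. It had the strongest excess in iKO 1 of the 32 genes. iKO 2 to 6, at 91.6 to 122 CPM, lay in or below the lower part of the control range. The change in Cd74 was 0.06 ± 0.34 with all libraries and -0.28 ± 0.14 without iKO 1. Ciita, the class II transactivator, was at 3.84, 5.12 and 7.84 CPM in controls and 3.77, 4.02 and 6.95 CPM in iKO libraries. iKO 2 to 6 stayed within 3.77 to 4.28 CPM, and control 1 lay among them. Its change was -0.36 ± 0.21 with all libraries and -0.50 ± 0.18 without iKO 1 (adjusted p = 0.183, edgeR quasi-likelihood F test, Benjamini-Hochberg).

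H2-DMa and H2-DMb1 encode the chains of H2-M, which loads peptides onto class II molecules. H2-DMa was at 13.4, 14.9 and 18.8 CPM in controls and 14.1, 15.2 and 27.1 CPM in iKO libraries, with changes of -0.01 ± 0.09 without iKO 1 and 0.10 ± 0.08 in the 9 libraries. Of its exon bases, 10.4% overlap Brd2 on the opposite strand, and the kit does not record strand. H2-DMb1 was at 5.45, 7.29 and 9.81 CPM in controls and 5.49, 6.29 and 13.95 CPM in iKO libraries, with a change of -0.28 ± 0.14 without iKO 1. Its near copy H2-DMb2 averaged 0.540 CPM in controls. Cd86 was at 1.38, 2.22 and 3.27 CPM in controls and 1.72, 1.90 and 4.81 CPM in iKO libraries, with overlap apart from iKO 1. Similar overlaps touch 68.7% of the exon bases of Itgam (Gm49368, same strand) and 15.1% of those of Csf1r (Hmgxb3, opposite strand).

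Per kilobase of exon, the control level was highest for Lyz2 (113 CPM per kb), followed by Cd74 (76.7), H2-Eb1 (41.5) and H2-Aa (30.4). C1qa and C1qb, at 26.5 and 26.1 CPM per kb, did not differ beyond their spread, and neither did H2-DMa and H2-DMb1, at 4.45 and 4.42 CPM per kb. The lowest levels were those of Ciita (0.592) and Trem2 (0.489). Within controls the coefficient of variation ran from 11.1% (Csf1r) to 46.2% (Cd163). In iKO 2 to 6 it ran from 1.03% (H2-Aa) to 35.0% (Cd163), and it was smaller than in controls for 30 of the 32 genes. The exceptions were Cd68 and Spi1. With iKO 1 kept, it was larger than in controls for all of the 32 genes but Cd163 and Ciita. For H2-Aa it was then 53.6%, against 22.0% in controls. Only the iKO group lost a library here, so the groups are not compared alike.

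The 32 genes varied together across libraries. Over the 496 pairs of genes, the median Pearson r of log2 CPM was 0.82 in 12 libraries, with 0 negative. Without iKO 1 the median was 0.55, and 30 pairs were negative. The 21 pairs of class II genes had a median r of 0.87 with iKO 1 and 0.72 without it, and the 3 pairs of C1q chains 0.98 and 0.91. Against the mean of the other 31 genes, over 11 libraries, H2-Aa (0.96), Mpeg1 (0.95), Ctss (0.95) and C1qc (0.93) were closest to the common profile. Ms4a7 (0.04), H2-DMa (0.27), Trem2 (0.31) and Cx3cr1 (0.35) were farthest from it. These correlations describe libraries that share groups, depth and dissection, and carry no test.

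**Figure D3:**
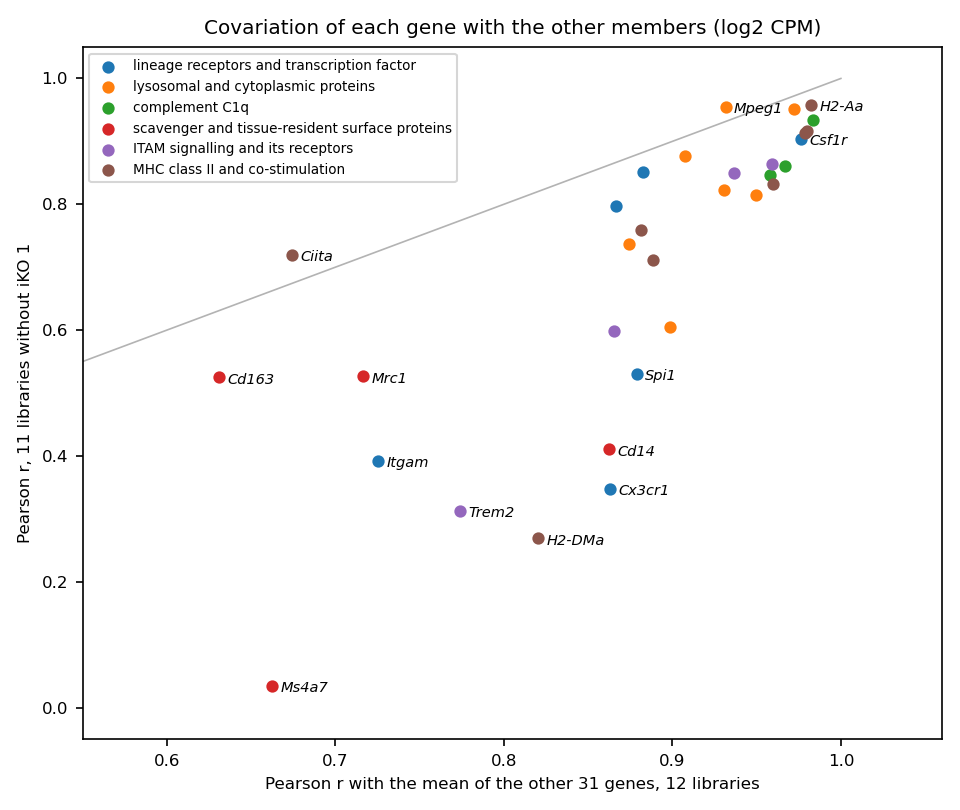
Pearson r of each gene's log2 CPM with the mean of the other 31 genes, over 12 libraries (horizontal) and over the 11 libraries without iKO 1 (vertical), coloured by role, with the line of equal values. H2-Aa and Mpeg1 stay near 0.95 without iKO 1, while Ms4a7 drops to 0.04.

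Genes outside all lists whose log2 CPM followed the mean profile of the 32 most closely over 11 libraries, among 12255 candidates, were Nr3c1 (r = 0.93), Steap4 (0.92), Trim30a (0.92), Unc93b1 (0.91), Stk17b (0.91), Kctd12 (0.91), Pde5a (0.91) and Alox5ap (0.91). With iKO 1 included, r was 0.42 for Nr3c1, the glucocorticoid receptor, and 0.98 for Unc93b1, the carrier of endosomal Toll-like receptors, which was then the closest of all candidates. Genes with the most opposite profile over 11 libraries were Glrx5 (-0.92), Fam185a (-0.91), Zfp771 (-0.89), Ube2m (-0.89), Rac1 (-0.88), Dcaf12l1 (-0.88), Ywhah (-0.87) and F8a (-0.87).

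Other genes of the same pathways were read from lists that leave out the 32. Of 11 measured further class II genes, which include the Rfx factors and lysosomal enzymes, 0 were called in all 12 libraries. Rfxap, a subunit of the RFX complex on class II promoters, had the smallest p (0.28 ± 0.07, adjusted p = 0.0836, edgeR quasi-likelihood F test, Benjamini-Hochberg). Ctsb, a lysosomal cathepsin and the most abundant, was at 0.05 ± 0.07. Among 22 genes of MHC class I presentation, 0 rose and 1 fell. That gene was H2-M11, a non-classical class I gene of a family with close copies, at 2.698 ± 1.38 CPM in the controls against 0.615 ± 0.295 CPM in the iKO group (SD, n = 6 each). The change was -2.09 ± 0.39 with all libraries and -2.37 ± 0.38 without iKO 1. Canx, the chaperone calnexin and the most abundant gene of that list, was at -0.06 ± 0.06.

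Growth factors and recruitment signals held 16 measured genes with 0 called in all 12 libraries. Csf1, a ligand of Csf1r, had the smallest p, at 17.8 ± 2.11 CPM in the controls against 14.9 ± 2.08 CPM in the iKO group (SD, n = 6 each, log2 fold change -0.29 ± 0.09 SE). Without iKO 1 Csf1 fell, by 0.34 (adjusted p = 0.0425, edgeR quasi-likelihood F test, Benjamini-Hochberg), with 14.1 ± 0.867 CPM in the 5 iKO libraries. Cd47, the abundant signal that restrains engulfment, was at -0.09 ± 0.08. In the 10 transcription factors measured 0 were called, with Nr1h3, the oxysterol receptor LXR alpha, at 0.32 ± 0.18 and Runx1 at -0.12 ± 0.07. Irf8, a factor of the monocyte lineage named here after its values were seen, fell without iKO 1 (-0.72 ± 0.16).

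The remaining pathway lists had 0 called in all 12 libraries. They were 13 other complement genes (Cd55, which protects cells from complement, -0.33 ± 0.10, also the most abundant), 14 phagocytic and Fc receptors and their ligands (Lyve1 -0.52 ± 0.23, Gas6 0.12 ± 0.09) and 12 ITAM kinases and adaptors (Hcst -0.58 ± 0.38, Lyn 0.19 ± 0.16). The other 2 were 8 inflammatory cytokines and effectors (Hmox1 -0.12 ± 0.06, Spp1 0.02 ± 0.12) and 11 interferon-gamma pathway genes (Ifngr1 -0.20 ± 0.09, Jak1 0.07 ± 0.09). Without iKO 1 the list medians were -0.42 for ITAM kinases and adaptors, -0.27 for phagocytic and Fc receptors, -0.25 for the interferon-gamma pathway, -0.23 for other complement genes and -0.16 for MHC class I. They were -0.15 for growth factors and recruitment signals, -0.09 for transcription factors, -0.09 for cytokines and effectors and -0.005 for the further class II genes. In the 5 lists of this paragraph, 1 gene of the phagocytic list fell without iKO 1 and 0 genes of the other 4 lists were called. That gene was the fatty acid receptor Cd36 (-0.70 ± 0.17), named after its values were seen.

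Markers of other cell types were also higher in iKO 1 in most lists. iKO 1 held 4.75 times the mean of the other iKO libraries in summed B cell markers (Cd79b the most abundant), 2.94 times in monocyte (Chil3), 2.86 times in neutrophil (S100a9) and 2.53 times in T and NK cell markers (Cd4). iKO 1 lay below control 6 in T and NK cell markers (7.75 and 8.82 CPM). Beside the highest control, it was at 535 against 481 CPM in neutrophil and 287 against 267 CPM in red blood cell markers. It held 0.995 times in dendritic cell (Flt3) and 0.97 times in mast cell markers (Kit). Such sums weigh the most abundant gene most. The median log2 fold changes of these 2 lists were -0.11 and -0.07 with all libraries. Without iKO 1 they were -0.25 and -0.33, over 5 genes each. Cd4, the 1 T and NK cell gene that passed the filter on low counts, was at -0.32 without iKO 1. In the other lists the median log2 fold changes without iKO 1 were -1.14 for 6 B cell genes, -0.67 for 5 monocyte genes, -0.64 for 8 neutrophil genes, -1.04 for 5 red blood cell genes (Hbb-bs) and -0.32 for 7 endothelial genes (Pecam1). They were -0.22 for 7 fibroblast genes (Dcn), -0.28 for 6 mural cell genes (Rgs5), 0.17 for 6 myelinating Schwann cell genes (Pmp22), -0.04 for 6 satellite glia genes (Apoe) and 0.11 for 10 sensory neuron genes (Tubb3). Summed B cell markers were 5.90 to 12.1 CPM in controls and 2.39 to 7.47 CPM in iKO 2 to 6. The sums overlapped, as they did for neutrophil markers (131 to 481 CPM and 127 to 259 CPM). Endothelial markers did not overlap, at 109 to 128 CPM in controls and 88.2 to 98.0 CPM in iKO 2 to 6. Mural cell markers did not overlap either (367 to 431 CPM and 334 to 353 CPM). The same held narrowly for T and NK cell markers (3.60 to 8.82 CPM and 2.45 to 3.55 CPM). The part of these cell types in the result was not tested.

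**Figure D4:**
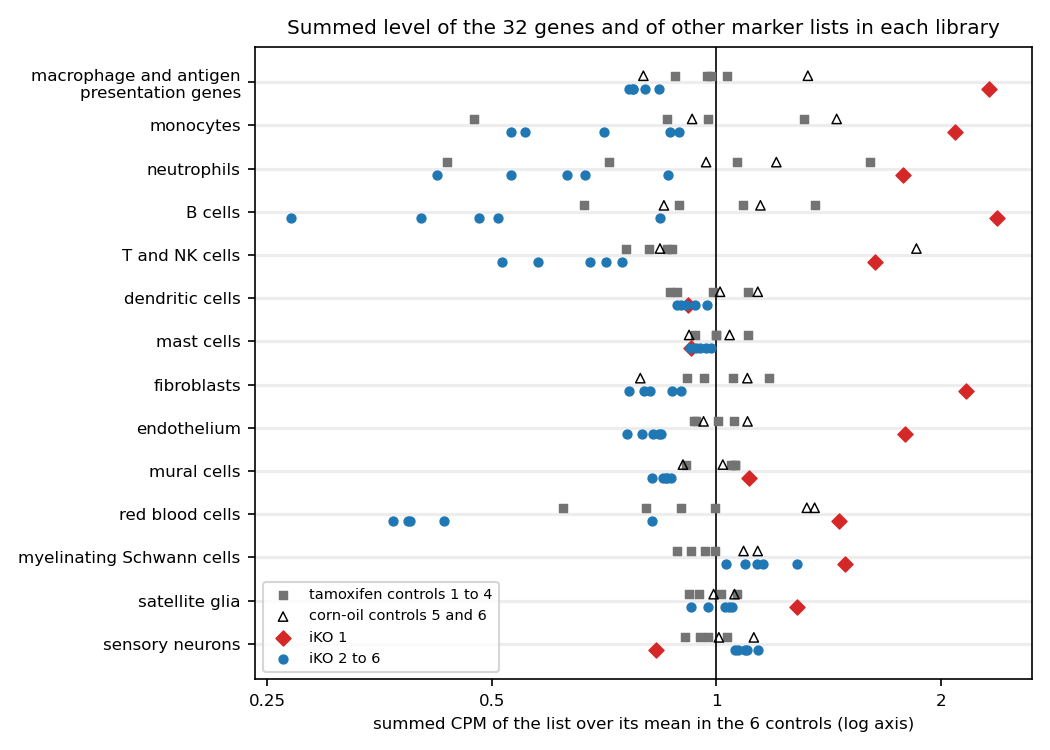
Summed CPM of the 32 genes and of marker lists of other cell types in each library, divided by the mean of the 6 controls (log axis). iKO 1 is above all controls in every list plotted except T and NK cells, dendritic cells, mast cells and sensory neurons. For sensory neurons it is the lowest library. iKO 2 to 6 lie below all controls for endothelium, mural cells and, narrowly, T and NK cells.

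Between the sexes, all 32 fitted changes, male minus female, were negative, with a median of -0.39 beside -0.001 for all genes. Of the 32, 0 were called by the quasi-likelihood F test of edgeR after Benjamini-Hochberg adjustment, 1 had an unadjusted p under 0.05 (Trem2), and DESeq2 and limma-voom called 0, where 0.0549% of all genes were called. Trem2 averaged 3.81 ± 1.89 CPM in 5 female and 2.24 ± 0.593 CPM in 7 male libraries (SD). The female libraries include iKO 1, and without it 22 of the 32 changes were negative and the median was -0.05. For the interaction of sex and group, 0 of the 32 were called by edgeR, DESeq2 or limma-voom and 1 had an unadjusted p under 0.05 in edgeR (Spi1), where 0% of all genes were called. The interaction had a median of -0.71 with iKO 1 and -0.08 without it.

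Against the 4 tamoxifen controls alone, in a fit of all 12 libraries by the quasi-likelihood F test of edgeR after Benjamini-Hochberg adjustment, 0 of the 32 were called and 0 had an unadjusted p under 0.05, with a median of 0.02, where 1.35% of all genes were called. Without iKO 1, 2 were called, both lower, 9 had an unadjusted p under 0.05, 30 were negative and the median was -0.26, where 8.87% of all genes were called. Against the 2 corn-oil controls, 0 were called and 0 had an unadjusted p under 0.05, with a median of -0.26 and 27 negative, where 0.146% of all genes were called. Without iKO 1, 0 were called, 18 had an unadjusted p under 0.05, 29 were negative and the median was -0.41, where 0.972% of all genes were called. These comparisons share the iKO libraries. Corn-oil minus tamoxifen controls had a median of 0.28 with 27 positive, 0 called and 0 with an unadjusted p under 0.05, where 0% of all genes were called. Without iKO 1 the median was 0.13 with 23 positive, 0 called and 4 at an unadjusted p under 0.05, and within the 6 controls alone 0.13 with 22 positive, 0 called and 2 at that level. The 2 corn-oil controls lay at opposite ends of the control range, with summed levels of 710 CPM in control 5 and 1180.5 CPM in control 6. Ptprc had the highest difference between them and the tamoxifen controls (0.72) and Ms4a7 the lowest (-0.49). Agent, genotype and run of deposited sample numbers go together in these 2 libraries and cannot be told apart.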

How the data were processed

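RNA-seq of 12 dorsal root ganglion libraries was read from the deposited tables, which hold raw counts per gene that the authors did not normalize. The submitters' processing notes name featureCounts 2.0.1, STAR 2.7.8a, bcl2fastq 2.20.0.422 and the genome build GRCm39, and the kit was non-stranded, per the labels' protocols. For the annotation release and the counting options, nothing is given in the sources used here. Reads shared by near-identical or overlapping genes may therefore have been dropped or misassigned. Symbols and exon lengths came from GENCODE M21 by Ensembl identifier (52083 of 55416 identifiers, 94%), and promoters from RefSeq GRCm38.p6, so no coordinates of the files' build are given.

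Counts were scaled by TMM, filtered with filterByExpr by group and tested with edgeR's quasi-likelihood test (edgeR 4.0.16, R 4.3.3) with sex as a term, 9 residual degrees of freedom and Benjamini-Hochberg adjustment over all genes tested at a threshold of 0.05. The biological coefficient of variation was 12.8%. P-values were 2-sided. Levels are CPM on TMM-scaled library sizes, and correlations used log2 CPM with a prior count of 2. Genes outside the 32 that were compared with their mean profile had a mean log2 CPM of 2 or more. DESeq2 1.42.0, limma-voom (limma 3.58.1), other scaling, no filter, no sex term, run, replicate number and leaving out libraries were alternatives. The procedure was tested on simulated data. The members and lists were chosen with earlier results of these data known. The text names all 32 genes, for each pathway list the genes called or else that with the smallest p, and the most abundant, for each cell marker list the most abundant, and the 8 genes most and least like the mean profile. The result of 1 marker list is not reported here.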

Additional observations from a re-analysis of the deposited data

Results flagged for a closer look

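In the iKO group 1 library, iKO 1, stood apart from the other 5. Its summed CPM of all 32 genes was separated from the nearest iKO library by 0.952 of the group's whole range, above Dixon's critical value for 6 samples. The same share was 0.926 for lysosomal and cytoplasmic proteins, 0.918 for lineage receptors and Spi1, 0.719 for scavenger and tissue-resident surface proteins, 0.879 for C1q, 0.940 for ITAM signalling and 0.943 for MHC class II genes with Cd86. Gene by gene, iKO 1 stood apart in 31 of the 32, and the exception was Cd163 (0.320). In the control group 1 of the 32 genes had a library that stood apart, Mpeg1 in control 6 (0.679). Chance marks about 5 in 100 groups in this way, and the 32 genes are not independent of each other. iKO 1 was already known to stand apart in markers of non-neuronal cells. The marks therefore describe that library and are not a separate test of it.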

How the results depend on the processing

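With all 12 libraries 0 of the 32 genes were called under each alternative that keeps iKO 1, including the fit with the replicate number as a block (replicate block, median log2 fold change -0.0012, 0 called). Same-numbered libraries correlated from -0.153 to 0.217 in their deviations, and 3 of 6 correlated best with their own number. Sex was not removed from the deviations, so whether the numbers pair libraries was not settled. Leaving out 1 library at a time gave 0 called genes, beside 0.558% to 1.14% of all genes, unless that library was iKO 1. Without iKO 1, 1 gene was called, beside 2.21% of all genes. Medians ran from -0.314 (without iKO 1) to 0.0635 (without control 6). The median was -0.383 in replicates 5 and 6 alone, where C1qa (-0.45), C1qb (-0.35), C1qc (-0.42), Trem2 (-0.016), Cd74 (-0.58), H2-Ab1 (-0.55), H2-DMa (-0.19), Laptm5 (-0.54) and Spi1 (-0.74) were negative where they were positive with all libraries, each beyond its standard error in at least 1 of these fits. The cause was not tested. Leaving out 1 library gave ranges of -0.15 to 0.22 for Cx3cr1, -0.27 to 0.21 for C1qa, -0.21 to 0.18 for C1qb, -0.28 to 0.16 for C1qc, -0.28 to 0.22 for Cd74, -0.31 to 0.17 for H2-Ab1, -0.32 to 0.14 for Laptm5 and -0.24 to 0.25 for Spi1, each lowest without iKO 1. Both iKO 1 and control 6 were left out after seeing the data, and 1 gene was called, beside 2.09% of all genes. Values were then -0.16 for Cx3cr1, -0.12 for C1qa, -0.11 for C1qb, -0.17 for C1qc, -0.14 for Cd74, -0.18 for H2-Ab1 and -0.23 for Laptm5. Without iKO 1, alternatives chosen after seeing the data called 1 gene except DESeq2 (4, beside 3.67% of all genes), no filter on low counts (16, beside 3.78%), no corn-oil controls (11, beside 9.62%), replicates 2 to 4 of iKO against 1 to 4 of control (3, beside 2.07%), and leaving out 1 more library, which gave 0 (without iKO 3, beside 1.41%) to 8 (without control 5, beside 5.34%) and 3 without control 3 (beside 2.19%). Against tamoxifen controls without iKO 1, 2 were called lower, where 8.87% of all genes were called. The causes were not tested. In the comparisons of sex, interaction and corn oil, 0 were called under each alternative run. The genes with fewest counts, Cd86 and Trem2, had as few as 19 and 20 counts in a library.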
